A study of Mus musculus with 2 samples.

Results

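Oxidative phosphorylation is represented here by 36 genes, 13 carried by the mitochondrial genome and 23 carried by nuclear chromosomes, and the 2 genomes were read apart. The genes were taken by name from a fixed list of respiratory chain subunits, and all 36 were found among the 32285 features of both matrices. The mitochondrial members are the 7 complex I genes mt-Nd1, mt-Nd2, mt-Nd3, mt-Nd4, mt-Nd4l, mt-Nd5 and mt-Nd6, the 3 complex IV genes mt-Co1, mt-Co2 and mt-Co3, the ATP synthase genes mt-Atp6 and mt-Atp8, and mt-Cytb of complex III. The nuclear members are Ndufa1, Ndufa2, Ndufa9, Ndufb8, Ndufb10, Ndufs1, Ndufs3 and Ndufv1 of complex I, Sdha, Sdhb and Sdhc of complex II, Uqcrc1, Uqcrc2, Uqcrb, Uqcrfs1 and Cyc1 of complex III, Cycs (cytochrome c), and Cox4i1, Cox5a, Cox5b, Cox6a1, Cox7a2 and Ndufa4 of complex IV.

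Oxidative phosphorylation passes electrons from NADH and succinate through complexes I to IV of the inner mitochondrial membrane to oxygen, and ATP synthase (complex V) uses the proton gradient that results. Complexes I, III, IV and V mix subunits of both genomes, whereas complex II is wholly nuclear. Mitochondrial genes are transcribed inside the organelle as long polycistronic RNAs by a dedicated polymerase, and nuclear genes are transcribed in the nucleus, so that the RNA of both genomes can vary independently. Hepatocytes are rich in mitochondria.

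The data are single-cell transcriptomes of mouse liver tumours, with 1 library of Crtc2+/+ and 1 of Crtc2-/- mice. Crtc2 codes for a protein that binds CREB and helps it to activate transcription. Mice of both genotypes received diethylnitrosamine (DEN), a liver carcinogen, into the peritoneum at 25 mg/kg when 2 weeks old, and were fed a diet that causes non-alcoholic steatohepatitis (NASH) from week 8 to week 26, when they were killed. The sources used here give neither the number of animals or tumours in a library nor the deleted part of Crtc2. Genotype therefore cannot be told apart from animal, tumour or library, no test was made, and every interval below is a 95% interval that covers counting error only. The knockout label has no check in these 3′ counts, because Crtc2 UMIs were present in both libraries, 615 in 9349 Crtc2+/+ cells and 400 in 8901 Crtc2-/- cells, and a 3′ tag can lie outside the deleted part.

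Counts are unique molecular identifiers (UMIs), 1 for each captured RNA molecule. The Crtc2+/+ library held 9707 barcodes and 81487425 UMIs and the Crtc2-/- library 9242 barcodes and 78040008 UMIs, and 29 barcode sequences occurred in both. Cells were assigned to 8 gates by raw UMIs of a few marker genes, which took 7573 (81.0%) of the kept Crtc2+/+ cells and 5975 (67.1%) of the kept Crtc2-/- cells. Hepatocyte gates needed at least 20 UMIs of Alb, Apoa1 and Ttr, and were divided into keratin-high cells, with at least 4 UMIs of Krt8 and Krt18, and keratin-low cells. In each gate UMIs were summed over cells and given as counts per 1e6 UMIs of the gate (CPM). Markers that no gate had used gave a mixed picture. All 6 further hepatocyte markers were present in both hepatocyte gates. The keratin-high gate also held the biliary markers Epcam, Krt19, Krt7, Sox9, Spp1 and Pkhd1, at a summed 40696 CPM in Crtc2+/+ and 8640 CPM in Crtc2-/- (Spp1 alone 38922 and 8066 CPM), so that hepatocyte and biliary markers were found in the same gate.

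Where members of the mitochondrial genome overlap, a short tag cannot always be given to 1 gene. The overlaps on chromosome M (GRCm38, GENCODE M21) are printed in capitals, all on the plus strand. The last 60 bases of mt-Nd4l (chrM:10114-10173) and the first 60 bases of mt-Nd4 (chrM:10167-10226) share 7 bases, which end the first gene and start the second.
mt-Nd4l: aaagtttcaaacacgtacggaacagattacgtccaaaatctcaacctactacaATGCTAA
mt-Nd4: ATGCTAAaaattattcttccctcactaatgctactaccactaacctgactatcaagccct
The whole of mt-Atp8 (chrM:7766-7969, 204 bases) and the first 100 bases of mt-Atp6 (chrM:7927-8026) share 43 bases, which are the 3′ end of mt-Atp8.
mt-Atp8: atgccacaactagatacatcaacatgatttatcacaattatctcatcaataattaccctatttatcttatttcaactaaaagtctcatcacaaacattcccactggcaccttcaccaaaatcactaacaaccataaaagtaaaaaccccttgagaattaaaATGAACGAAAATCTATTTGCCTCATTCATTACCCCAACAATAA
mt-Atp6: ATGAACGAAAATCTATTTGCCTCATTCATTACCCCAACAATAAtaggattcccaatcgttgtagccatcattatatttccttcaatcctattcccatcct
In addition, mt-Nd5 and mt-Nd6 overlap by 14 bases on opposite strands (chrM:13552-13565) and mt-Atp6 and mt-Co3 by 1 base. Counts of mt-Nd4l and mt-Atp8 may be affected by the shared bases, and how much was not tested.

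The nuclear members have separate promoters. RefSeq promoter windows of 300 bases (GRCm38.p6) were at hand for 16 of the 23, and were searched on both strands for motifs of factors known to act on respiratory genes. The strict NRF1 motif, a 10-base palindrome, was in 2 of the 16 (12.5%) and in 0.971% of all 32851 windows. A broader form that allows any base at the fifth position, and so includes the first, was in 3 (18.8%) against 4.60%, the ETS motif ACCGGAAGT in 1 (6.25%, Ndufs3) against 1.10%, and the YY1 motif AAGATGGC in 2 (12.5%, Ndufa9 and Ndufb8) against 2.75%. The 2 windows with the strict NRF1 motif, of Cox6a1 (chr5:115348909-115349208, minus strand) and Uqcrc1 (chr9:108936398-108936697, plus strand), are shown to place the motif, with matches of either form on either strand in capitals (the strict motif is the first run in Cox6a1 and the last in Uqcrc1).
Cox6a1: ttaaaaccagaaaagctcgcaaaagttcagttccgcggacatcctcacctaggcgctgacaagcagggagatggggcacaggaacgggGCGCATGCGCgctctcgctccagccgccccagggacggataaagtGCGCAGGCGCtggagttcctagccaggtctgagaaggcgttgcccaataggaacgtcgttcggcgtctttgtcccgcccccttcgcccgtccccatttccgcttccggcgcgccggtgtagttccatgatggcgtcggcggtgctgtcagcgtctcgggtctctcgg
Uqcrc1: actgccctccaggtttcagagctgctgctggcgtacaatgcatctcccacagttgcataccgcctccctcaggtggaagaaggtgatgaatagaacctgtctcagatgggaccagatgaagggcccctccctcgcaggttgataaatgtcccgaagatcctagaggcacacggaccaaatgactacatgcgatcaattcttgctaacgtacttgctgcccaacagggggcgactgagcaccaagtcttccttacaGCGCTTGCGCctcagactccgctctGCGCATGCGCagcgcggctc
A match is a description of these letters and was not read as a binding site.

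The mitochondrially encoded genes stood far apart between libraries in hepatocyte gates and close together in lymphocytes. In keratin-high cells their median share of a cell's UMIs was 4.52% (quartiles 2.86% and 6.57%) in 156 Crtc2+/+ cells and 1.67% (0.056% and 2.98%) in 131 Crtc2-/- cells. In keratin-low cells it was 8.29% (2.60% and 12.5%) in 71 Crtc2+/+ cells and 0.230% (0.047% and 2.95%) in 54 Crtc2-/- cells. The interquartile ranges overlapped only narrowly in both gates. Endothelial cells (medians 2.52% and 2.56%), T cells (2.08% and 2.16%) and B cells (2.60% and 2.96%) had closer medians, with ranges that overlapped for most of their length. The endothelial gate joined cells with Stab2 UMIs (3.11% and 2.56%) and cells without (2.21% and 2.72%), which differed in opposite directions. Macrophages (1.66% and 2.23%) and Sox5 myeloid cells (1.82% and 2.66%) had the higher median in the Crtc2-/- library. Neutrophils had the lowest Crtc2+/+ median, 0.469%, and 0.532% in the Crtc2-/- library.

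**Figure D1:**
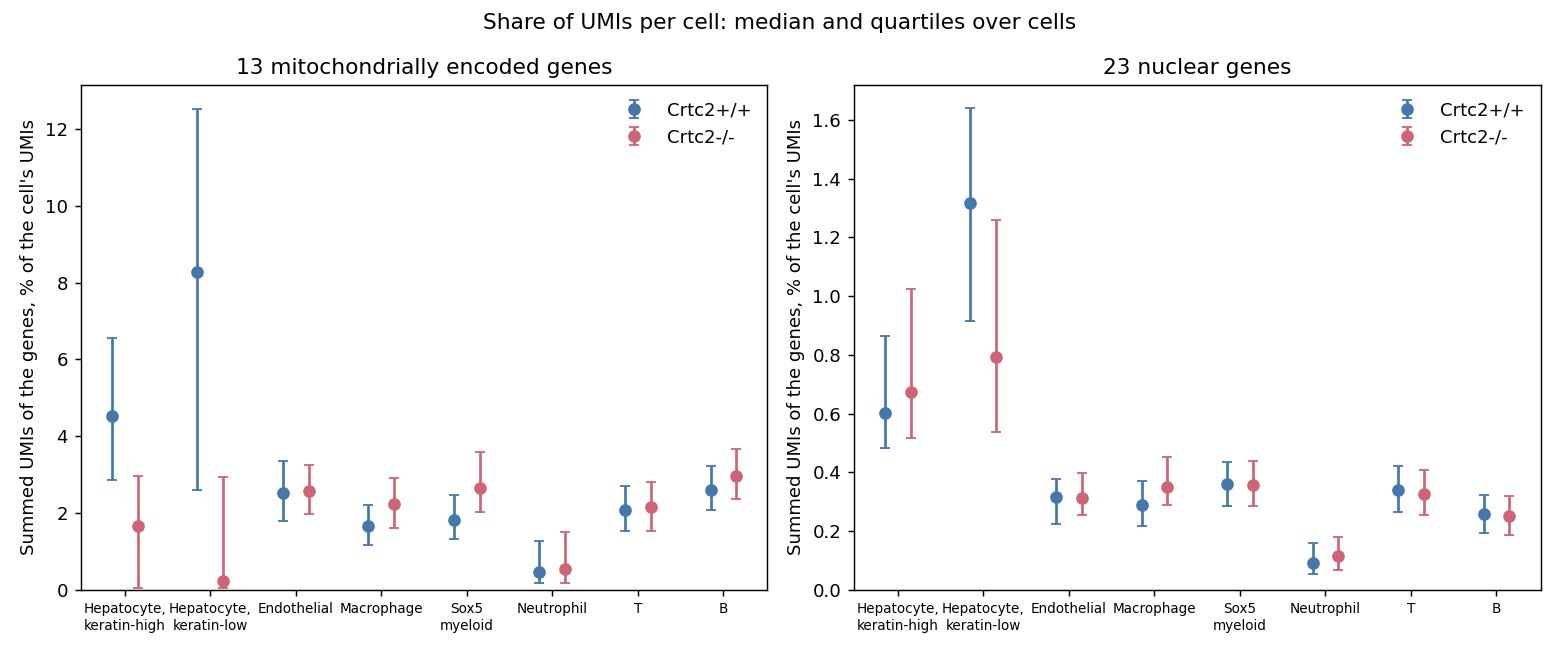
Summed UMIs of the 13 mitochondrially encoded genes (left) and of the 23 nuclear genes (right) as a percent of a cell's UMIs, by gate and library; points are medians over cells and bars run from the lower to the upper quartile. The hepatocyte gates hold the widest gap between libraries on the left (4.52% against 1.67% in keratin-high cells), while T and B cells lie together.

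The nuclear members did not follow the mitochondrial ones from gate to gate. As a ratio of summed CPM, Crtc2-/- over Crtc2+/+, the mitochondrial sum was 0.394 (interval 0.389 to 0.399) and the nuclear sum 1.19 (1.16 to 1.22) in keratin-high cells. The log2 ratio of that nuclear sum, 0.25, was -0.087 in cells with at least 0.5% mitochondrial UMIs, 0.095 in cells with at least 0.1% Malat1 UMIs and 0.096 as a mean of per-cell CPM. Both sums were lower in the Crtc2-/- library in keratin-low cells, at ratios of 0.459 (0.445 to 0.475) and 0.641 (0.597 to 0.689). The size in keratin-low cells depended on which cells were taken. The log2 ratio of the mitochondrial sum, -1.12, was -1.80 with no limit on the mitochondrial share, a limit that had left out 20 Crtc2+/+ and 3 Crtc2-/- cells, and -0.30 in cells with at least 0.1% Malat1 UMIs. That of the nuclear sum, -0.64, was -1.13 in the latter cells and -0.37 with cells of overlapping gates kept. Both were higher in macrophages, at 1.31 (1.304 to 1.317) and 1.18 (1.16 to 1.19). In neutrophils the mitochondrial sum was at 0.874 (0.840 to 0.910) and the nuclear sum at 1.20 (1.06 to 1.36). Ratios of both sums lay between 0.976 and 1.05 in endothelial, T and B cells. Mitochondrial UMIs per nuclear member UMI were 8.02 and 2.65 in keratin-high cells, and 9.99 and 10.03 in B cells.

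**Figure D2:**
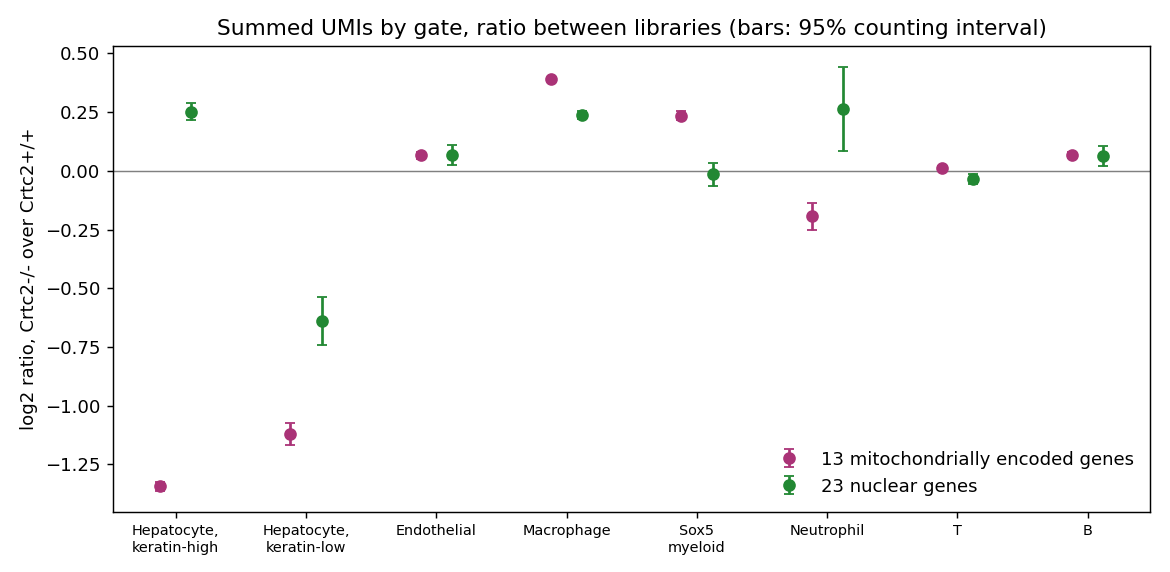
Log2 ratio of summed CPM, Crtc2-/- over Crtc2+/+, for the 13 mitochondrially encoded and the 23 nuclear genes in each gate; bars are 95% counting intervals and 0 means equal levels. The 2 genomes lie on opposite sides of 0 in keratin-high hepatocytes (-1.34 and 0.25, the latter -0.087 in cells with at least 0.5% mitochondrial UMIs) and in neutrophils (-0.19 and 0.26).

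Single members were compared as log2 ratios of CPM, Crtc2-/- over Crtc2+/+, after adding 10 CPM to each, where a gene had at least 20 UMIs over both libraries. A ratio of at least 1 or at most -1, a 2-fold difference, was counted as past the threshold. In keratin-high cells all 13 mitochondrial members had lower CPM in the Crtc2-/- library. Of these 13, 8 were at or below -1, where the background over 10962 genes was 6.10%. With 1 CPM added in place of 10 the count was 11. The median of the 13 was -1.29, against -0.08 over all genes. For 12 of the 13 the interval of the ratio lay wholly under 1, and mt-Nd6 was the exception (0.65, 0.40 to 1.04, from 44 and 34 UMIs).

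Among the complex I genes, which encode the membrane arm of the NADH dehydrogenase, mt-Nd4 had 5520.5 CPM in Crtc2+/+ and 1529 CPM in Crtc2-/- keratin-high cells, a log2 ratio of -1.85 and the lowest of the 36. Its overlapping neighbour mt-Nd4l had 168 and 54.6 CPM (-1.46). Among the more abundant complex I genes the smallest gap was that of mt-Nd1, at 2376 and 1409 CPM (-0.75). Complex I genes thus spanned -0.43 (mt-Nd6) to -1.85 within 1 gate.

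Cytochrome b, the only complex III protein made inside mitochondria, had 8231 CPM of mt-Cytb in the Crtc2+/+ library and 2489 CPM in the Crtc2-/- library (-1.72), the second lowest ratio. The complex IV catalytic core genes were closer to each other, with mt-Co1 at 4873 and 2435 CPM (log2 ratio -0.998 after adding 10 CPM, just outside the threshold), mt-Co2 at 5940.0 and 2415 CPM (-1.29) and mt-Co3 at 8978 and 3869 CPM (-1.21). For ATP synthase, mt-Atp6 had 9923 and 3871 CPM (-1.36). Summed by complex, the ratio was 0.382 (0.372 to 0.391) for complex I, 0.302 (0.293 to 0.313) for complex III, 0.441 (0.432 to 0.449) for complex IV and 0.390 (0.380 to 0.401) for complex V.

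Of the 23 nuclear members in keratin-high cells, 15 had higher and 8 lower CPM in the Crtc2-/- library, with a median log2 ratio of 0.27, and 1 was at or above 1, where the background was 4.79%. That gene was Uqcrfs1, the Rieske iron-sulfur protein of complex III, at 115 and 250.4 CPM (1.06). Uqcrb, another complex III subunit, had 273 and 456 CPM (0.72). Cox4i1, a regulatory subunit of complex IV, had 509.7 and 959.6 CPM (0.90), and Cox5a had 460 and 690 CPM (0.57). The lowest were Ndufs1, the largest complex I core subunit, at 60.3 and 43.9 CPM (-0.38), and Cox5b at 427 and 352 CPM (-0.27). By complex, the nuclear sums had ratios of 1.09 (1.03 to 1.16) for complex I, 1.30 (1.17 to 1.44) for complex II, 1.44 (1.34 to 1.54) for complex III and 1.15 (1.11 to 1.19) for complex IV, and Cycs 1.38 (1.20 to 1.57). These ratios are of the whole gate, and not all held when cells were divided at 0.5% mitochondrial UMIs. Below and above that share, Cycs had ratios of 0.758 (0.587 to 0.991) and 0.805 (0.670 to 0.966), and Sdhb 0.640 and 0.877. Uqcrfs1 (1.75 and 1.45) and Cox4i1 (2.92 and 1.76) stayed above 1 in both.

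The keratin-high gate was not 1 population by its mitochondrial share. A cluster of barcodes had under 0.5% mitochondrial UMIs, 21 of 156 (13.5%, Clopper-Pearson interval 8.53% to 19.8%) in the Crtc2+/+ library and 49 of 131 (37.4%, 29.1% to 46.3%) in the Crtc2-/- library. Most of these were also under 0.1% in Malat1, a long non-coding RNA kept in the nucleus, namely all 21 and 42 of the 49. Both cut-offs were chosen after seeing the data.

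In the low-mitochondrial barcodes the mitochondrial members summed to 927 CPM in Crtc2+/+ and 569 CPM in Crtc2-/-, and the nuclear members to 12761 and 11657 CPM. In the other keratin-high cells these sums were 51917 and 27576 CPM for the mitochondrial genome, and 5807 and 5466 CPM for the nuclear genome. The nuclear sum was therefore higher in the low-mitochondrial barcodes of both libraries. Cox5a, for example, had 1330 CPM in the low-mitochondrial barcodes and 415 CPM in the others of the Crtc2+/+ library, and 1296 and 429 CPM in those of the Crtc2-/- library. Cycs had 866 and 186 CPM in Crtc2+/+, and 657 and 150 CPM in Crtc2-/-. Cox4i1 had no such gap, with 366 and 517 CPM in Crtc2+/+, and 1070 and 912 CPM in Crtc2-/-. Within the low-mitochondrial barcodes the nuclear sum had a ratio of 0.913 (0.856 to 0.976), Crtc2-/- over Crtc2+/+. Of its 23 members 9 were above and 14 below 0, with a median of -0.27 against 0.20 over all genes.

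Other genes also differed between the 2 kinds of barcode. Malat1 had 85.4 and 745 CPM in the low-mitochondrial barcodes of Crtc2+/+ and Crtc2-/-, and 8928 and 15722 CPM in the others. The biliary markers summed to 1098 and 264 CPM in the low-mitochondrial barcodes, and to 42777 and 12252 CPM in the others. Alb was higher in the low-mitochondrial barcodes, at 14688 and 14194 CPM against 5978 and 6073 CPM. Fabp1, the liver fatty acid binding protein, had 622 and 18870 CPM in the low-mitochondrial barcodes, so that these barcodes were not alike in the 2 libraries. The median depth of the low-mitochondrial barcodes was 3415 and 9528 UMIs, against 10270 and 16706 UMIs in the others. The part of these differences in the result was not tested.

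**Figure D3:**
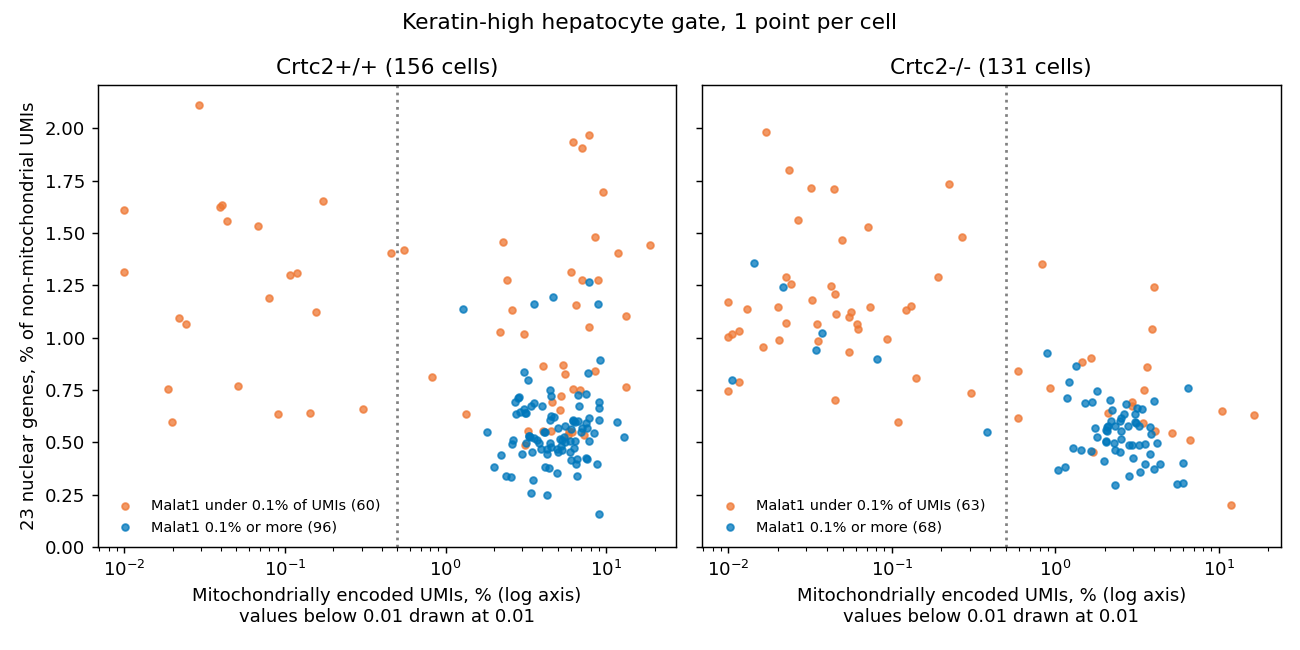
Each point is 1 cell of the keratin-high hepatocyte gate, placed by its mitochondrially encoded share of UMIs (log axis) and by the share of the 23 nuclear genes among its non-mitochondrial UMIs; colour marks a Malat1 share under 0.1% and the dotted line is at 0.5%. Cells left of the line number 21 in Crtc2+/+ and 49 in Crtc2-/-, and lie higher on the vertical axis than most cells to the right.

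In the 135 and 82 keratin-high cells at or above 0.5%, the mitochondrial sum had a ratio of 0.531 (0.525 to 0.538; log2 -0.91). These cells were selected on the mitochondrial share itself, so the value describes them and is no separate evidence of a difference. The nuclear sum then had a ratio of 0.941 (0.913 to 0.971; log2 -0.09), on the other side of 1 from its value in the whole gate. All 13 mitochondrial members were below 0, 4 of them at or below -1 (background 5.62%): mt-Nd4 (-1.41), mt-Cytb (-1.29), mt-Nd4l (-1.09) and mt-Nd5 (-1.04). Of the nuclear members 8 were above and 15 below 0 and none was past the threshold in either direction, with Cox4i1 highest (517 and 912 CPM, 0.81) and Cox5b lowest (402 and 252 CPM, -0.66). Uqcrfs1 was at 107 and 155 CPM (0.50). The 96 and 61 cells with neither low mitochondrial nor low Malat1 share gave ratios of 0.526 (0.519 to 0.533) for the mitochondrial and 0.986 (0.951 to 1.02) for the nuclear sum. In these cells, too, the biliary markers differed, at 42839.5 and 13071 CPM, and the part of that difference was not tested.

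Keratin-low hepatocytes were the shallowest hepatocyte gate, with median depths of 1717 and 1722.5 UMIs. All 11 mitochondrial members with enough UMIs were lower in the Crtc2-/- library, 6 of them at or below -1 (background 12.3% of 2252 genes), with a median of -1.03 against 0.04 over all genes. The lowest were mt-Nd4, at 8349 and 2525 CPM (-1.72), and mt-Nd2, another membrane subunit of complex I, at 4344 and 1516 CPM (-1.51). The closest to 0 were mt-Nd3, at 549 and 453 CPM (-0.27), and mt-Nd1, at 3092 and 1957 CPM (-0.66). In this gate mt-Nd6 and mt-Atp8 had too few UMIs for a ratio.

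The nuclear members were mostly below 0 in both kinds of keratin-high barcode, though not in that gate as a whole. In keratin-low cells they were mostly lower too. Of 22 measured, 5 were above and 17 below 0, with a median of -0.74. At or below -1 were 3, where the background was 12.3%, and none was at or above 1, where it was 19.7%. These were Ndufa4, a complex IV subunit once assigned to complex I, at 3130.0 and 1431 CPM (-1.12), Ndufa9 at 134 and 60.4 CPM (-1.03) and Cycs at 894 and 435 CPM (-1.02). The highest were Cox4i1, at 677 and 1057 CPM (0.63), and Sdha, the flavoprotein of succinate dehydrogenase, at 141 and 181 CPM (0.34, from 22 and 30 UMIs). Ndufs1 was not measured.

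Barcodes under 0.5% mitochondrial UMIs were also present in the keratin-low gate. They were 11 of 71 (15.5%, 8.00% to 26.0%) in Crtc2+/+ and 30 of 54 (55.6%, 41.4% to 69.1%) in Crtc2-/-. A Malat1 share under 0.1% was found in 58 (81.7%) and 47 (87.0%) of the cells, thus also in many cells at or above 0.5%. These low-mitochondrial barcodes differed from those of the keratin-high gate. Their Alb was lower than in the other cells of the gate, at 27623 against 47893 CPM in Crtc2+/+ and 18860 against 47006 CPM in Crtc2-/-. Their nuclear members summed to 13148 against 11969 CPM in Crtc2+/+ and to 11954 against 5303 CPM in Crtc2-/-. In the 60 and 24 cells at or above 0.5% the log2 ratio was -0.77 for the mitochondrial and -1.17 for the nuclear sum, the first of which is shaped by the selection on the same share. Ptprc, a pan-leukocyte marker, was at 115 and 580 CPM in the gate, and the Dissociation and heat shock list, among it Egr1 (6.39 and 163 CPM), had a median log2 ratio of 1.89. Their part in the result was not tested.

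The makeup of the mitochondrial sum also differed between libraries. Each share was taken of UMIs summed over a gate, so that cells with more mitochondrial RNA weigh more. The part of the mix of cells in these shares was not tested. In keratin-high cells mt-Cytb made up 16.7% (interval 16.4% to 16.9%) of the sum in Crtc2+/+ and 12.8% (12.5% to 13.1%) in Crtc2-/-, and mt-Nd4 made up 11.2% and 7.87%. The shares of mt-Nd1 (4.81% and 7.25%) and mt-Co1 (9.87% and 12.5%) were higher in the Crtc2-/- library. The share of mt-Cytb was also lower in the Crtc2-/- library in macrophages (11.4% and 9.34%), Sox5 myeloid cells (13.7% and 10.5%) and neutrophils (13.8% and 11.0%). It was lower, too, in keratin-low cells (14.3% and 12.2%), endothelial cells (12.5% and 11.8%) and B cells (12.5% and 11.8%), so that of the 8 gates only T cells had the higher share in the Crtc2-/- library (10.8% and 11.1%). In the endothelial subsets the intervals of the 2 libraries overlapped, at 11.6% and 11.7% in Stab2-positive and 13.27% and 12.99% in Stab2-negative cells.

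**Figure D4:**
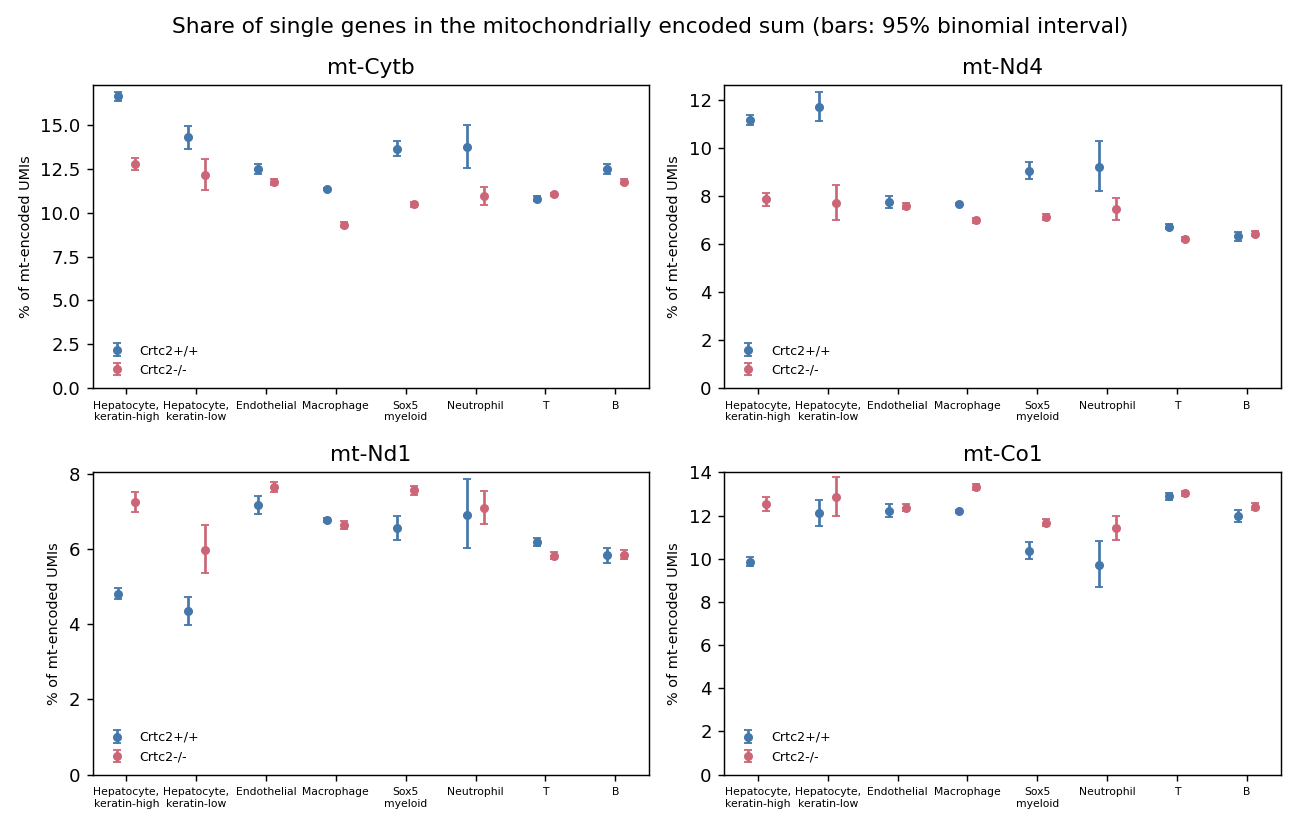
Share of mt-Cytb, mt-Nd4, mt-Nd1 and mt-Co1 in the summed UMIs of the 13 mitochondrially encoded genes, in percent, by gate and library; bars are 95% binomial intervals for counting error. In keratin-high hepatocytes mt-Cytb (16.7% and 12.8%) and mt-Nd4 are lower, and mt-Nd1 and mt-Co1 higher, in Crtc2-/-.

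Macrophages, gated on at least 20 UMIs of C1qa, C1qb and C1qc, numbered 4586 in Crtc2+/+ and 629 in Crtc2-/-. Cells with that many UMIs of these genes numbered 4940 and 1662 before those that passed another gate were taken out. Those that also passed only the Sox5 myeloid gate were counted there. All 13 mitochondrial members had higher CPM in the Crtc2-/- library, with a median log2 ratio of 0.36 against -0.01 over all genes, and none was past the threshold, where the background was 2.32% higher and 1.56% lower. The highest were mt-Nd2, at 675 and 1054 CPM (0.64), and mt-Nd5, at 102 and 153 CPM (0.54). The lowest were mt-Atp8, at 9.53 and 9.98 CPM (0.03), and mt-Cytb, at 2065 and 2221 CPM (0.10).

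Of the 23 nuclear members in macrophages, 21 were higher and 2 lower in the Crtc2-/- library, with a median of 0.11. Cox5a, a complex IV subunit, stood apart from the rest in the whole gate, at 358 and 635 CPM (0.81; ratio 1.77, 1.72 to 1.83). The next was Sdhc, a membrane anchor of succinate dehydrogenase, at 54.8 and 76.9 CPM (0.42). Lower were Ndufa9 (53.5 and 47.5 CPM, -0.14) and Ndufa2 (141 and 134 CPM, -0.06). Cox5a was also among the higher members in Sox5 myeloid cells (394 and 537 CPM, 0.44), and was at 361 and 352 CPM (-0.04) in T cells.

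The macrophage gate held different kinds of macrophage in the 2 libraries. Cells with at least 3 UMIs of the Kupffer cell genes Cd5l, Vsig4 and Clec4f numbered 30 and 199, and cells with none 4471 and 354. The mitochondrial sum was higher in the Crtc2-/- library in both subsets, at 22831 and 28713 CPM in marked cells (ratio 1.26, 1.23 to 1.28) and at 18093 and 20686 CPM in unmarked cells (1.14, 1.14 to 1.15). The nuclear sum had ratios of 1.07 (1.01 to 1.12) and 1.15 (1.13 to 1.17). Cox5a was higher in both, at 630 and 870 CPM in marked cells (ratio 1.38, 1.22 to 1.57) and 355 and 495 CPM in unmarked cells (1.39, 1.33 to 1.46). Both ratios were under the 1.77 of the whole gate, and Cox5a stood less apart. In marked cells Cyc1 had a higher log2 ratio (0.51 against 0.46, from 16 and 154 UMIs). In unmarked cells Uqcrfs1 came next to Cox5a (0.39 against 0.47). By contrast, mt-Cytb was near equal in both subsets (ratios 1.03 and 0.98).

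Sox5 myeloid cells had at least 2 UMIs of Sox5 and at least 2 of Csf1r, Fcgr4 and Cd68, and numbered 81 and 656. Cells that also passed the macrophage gate were included. Their mitochondrial sum was 24495 and 28817 CPM (ratio 1.18, 1.16 to 1.19), with 11 members above and 2 below 0. The highest were mt-Nd3, at 206 and 361 CPM (0.78), and mt-Nd1, at 1604 and 2178 CPM (0.44). The lowest were mt-Cytb, at 3348 and 3025 CPM (-0.15), and mt-Nd4. The nuclear sum was 3846 and 3809 CPM (0.990, 0.957 to 1.02; log2 -0.01, and 0.01 as a mean of per-cell CPM), with 10 members above and 13 below 0, and its lowest members were Cyc1, the cytochrome c1 of complex III, at 79.1 and 53.5 CPM (-0.49), and Cox5b at 268 and 205 CPM (-0.37). No member was past 1 in either direction (background 4.51% higher and 7.66% lower).

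The direction in this gate depended on how it was drawn. An alternative kept cells that also pass another gate and dropped the requirement for Csf1r, Fcgr4 and Cd68. In its 267 and 1166 cells the log2 ratio of the mitochondrial sum was -0.44 in place of 0.23. The Crtc2+/+ cells of this gate also carried biliary markers (7806 CPM summed, against 404 CPM in Crtc2-/-) and more Apoe (14719 and 1779 CPM), and less Fcrl5 (216 and 949 CPM) and Fcgr4 (751 and 3391 CPM). The part of these cells in the result was not tested.

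Neutrophils, with at least 20 UMIs of S100a8 and S100a9, had the smallest nuclear sum of any gate, 1419 CPM in 73 Crtc2+/+ cells and 1701 CPM in 299 Crtc2-/- cells. A mitochondrial share under 0.5% was common in both libraries, in 37 (50.7%) and 143 cells (47.8%), but a Malat1 share under 0.1% was found in 0 of 73 (exact upper limit 4.93%) and 1 of 299. Of 11 measured mitochondrial members 9 were below 0, and none was past 1 in size (background 2.72% lower). The lowest were mt-Nd4l, with 11 and 25 UMIs (-0.90), and mt-Cytb, at 1940.1 and 1351 CPM (-0.52). Of 20 measured nuclear members 16 were above 0, with a median of 0.30, and 1 was past 1 (background 8.54%). This was Uqcrfs1 (3 and 48 UMIs; ratio 3.13, 1.01 to 15.7), followed by Ndufb8, an accessory complex I subunit, at 28.2 and 66.1 CPM (0.995, just outside the threshold, from 6 and 72 UMIs). The lowest were Ndufs1 (-0.42) and Sdhb (-0.37). Both wide intervals rest on few UMIs in the Crtc2+/+ library.

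Endothelial cells, with at least 3 UMIs of Ptprb and Stab2, numbered 205 and 508, and had mitochondrial sums of 24970.0 and 26146 CPM. None of the 36 members was past 1 (background 1.80% higher and 2.76% lower). The widest gaps were in nuclear members, with Cycs at 91.2 and 124 CPM (0.40), Cyc1 at 69.3 and 49.2 CPM (-0.42) and Ndufs1 at 57.3 and 43.3 CPM (-0.34). The gate mixed Stab2-positive sinusoidal-type cells, 83 and 471, with Stab2-negative cells, 122 and 37. The mitochondrial sum was lower in the Crtc2-/- library among the former (29451 and 26201 CPM; 0.890, 0.877 to 0.903) and higher among the latter (22298 and 25181 CPM; 1.13, 1.10 to 1.16). Hepatocyte transcripts were more abundant in the Crtc2-/- endothelial cells, with Alb, Apoa1 and Ttr at a summed 148 and 955 CPM, and their part in the result was not tested.

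T cells, with at least 2 UMIs of Cd3d, Cd3e and Cd3g, numbered 1866 and 2504. The mitochondrial sum was 22377 and 22542 CPM (1.007, 1.002 to 1.013; log2 0.01, and -0.0027 with called doublets kept), with 7 members above and 6 below 0. The highest were mt-Nd6 (15.7 and 21.2 CPM, 0.28) and mt-Co2 (3095.5 and 3289.8 CPM, 0.09), and the lowest mt-Nd4 (1503 and 1398 CPM, -0.10) and mt-Nd4l. The nuclear sum was 3588 and 3503 CPM (0.976, 0.963 to 0.990), with 7 members above and 16 below 0. Here the lowest were Cycs, at 181 and 157 CPM (-0.20), and Sdhc, at 46.2 and 40.6 CPM (-0.15), and the highest Sdha, at 106 and 117 CPM (0.13), and Sdhb. No member was past 1, where the background was 0.490% higher and 0.513% lower.

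B cells, with at least 2 UMIs of Cd79a and Cd79b, numbered 535 and 1194. The mitochondrial sum was 27343 and 28666 CPM (1.05, 1.04 to 1.06) and the nuclear sum 2738 and 2858 CPM (1.04, 1.01 to 1.08; log2 0.06, and -0.03 as a mean of per-cell CPM). No member was past 1 (background 0.987% higher and 0.188% lower). Ndufa1, an accessory complex I subunit encoded on chromosome X, was highest, at 37.0 and 56.6 CPM (0.50; ratio 1.53, 1.19 to 1.98), followed by Cyc1 at 37.5 and 50.7 CPM (0.36). The lowest nuclear members were Sdhc and Ndufa2. The mitochondrial members ran from -0.06 to 0.22.

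**Figure D5:**
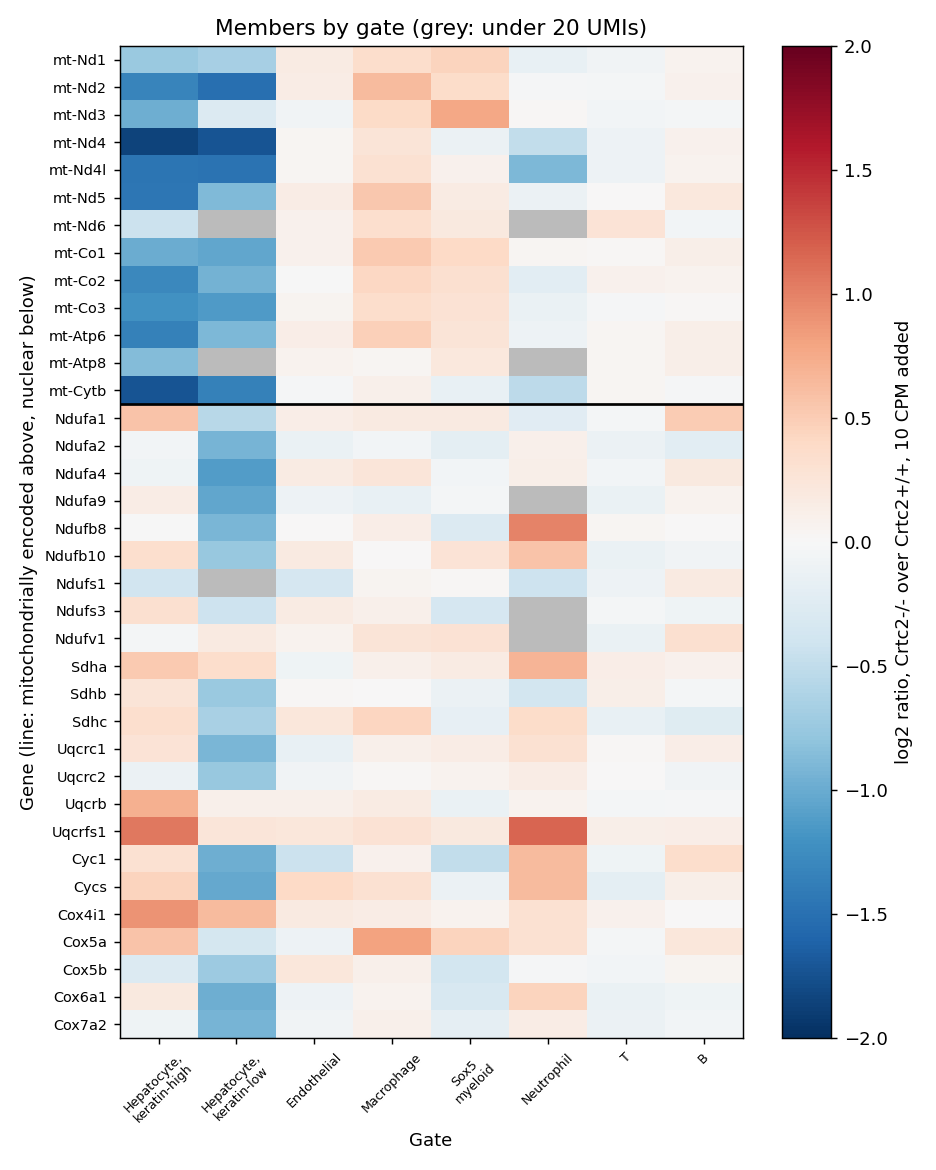
Log2 ratio of CPM, Crtc2-/- over Crtc2+/+, of each member (rows) in each gate (columns) after adding 10 CPM; red is higher and blue lower in Crtc2-/-, and grey marks under 20 UMIs. The measured mitochondrial rows are blue in both hepatocyte columns, down to -1.85 for mt-Nd4, and red throughout the macrophage column, while T and B columns are pale.

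Fuller lists of nuclear genes put these members beside the rest of their complexes. Of the 36 nuclear complex I subunits, all measured in keratin-high cells, 19 were above and 17 below 0 (median 0.02), with Ndufs6 (156 and 270 CPM, 0.75) and Ndufs4 (0.70) highest and Ndufs7 (-0.65) and Ndufa5 (-0.51) lowest, and none past 1. In the same gate 14 of 16 ATP synthase subunits were above 0 (median 0.12), 8 of 10 genes of complex III with cytochrome c (0.30), 6 of 11 complex IV subunits (0.18) and all 4 complex II subunits (0.29). Cox7b, another complex IV subunit, had 181 and 323 CPM (0.80). Assembly factors had 13 above and 22 below (median -0.06), with Surf1, which helps to assemble complex IV, at 60.9 and 26.5 CPM (-0.96). These medians stand beside -0.08 over all genes. They are of the whole gate, and the lists were not divided by mitochondrial share.

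In keratin-low cells most genes of these lists were lower in the Crtc2-/- library. Of 35 measured complex I subunits 29 were below 0 (median -0.62) and 5 at or below -1, where the share over all genes was 12.3%, with Ndufa12 lowest (313 and 66.4 CPM, -2.08). Below 0 were also 15 of 16 ATP synthase subunits (-0.53), 10 of 11 complex IV subunits (-0.64), 7 of 10 genes of complex III with cytochrome c (-0.69) and 22 of 23 mitochondrial ribosomal protein genes (-0.43). Among the last, Mrpl42 had 549 and 169 CPM (-1.64).

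In macrophages 27 of 36 complex I subunits were above 0 (median 0.11), all 11 complex IV subunits (0.13), 12 of 16 ATP synthase subunits (0.17), 9 of 10 genes of complex III with cytochrome c (0.15) and 24 of 33 mitochondrial ribosomal protein genes (0.08), and none was past 1. In T cells 6 of 36 complex I subunits were above and 30 below 0 (median -0.12), with Ndufb4 lowest (68.6 and 56.0 CPM, -0.25). Among endothelial and B cells, medians of these lists lay between -0.03 and 0.13. Lists for the upkeep and transcription of mitochondrial DNA, which serve the mitochondrial members directly, had medians of -0.04 in keratin-high cells (9 above and 10 below 0) and 0.02 in macrophages. Tfam, which packages mitochondrial DNA and helps to start its transcription, was at 52.4 and 47.9 CPM (-0.11) in keratin-high cells. In the same cells Lrpprc, which stabilises mitochondrial messenger RNA, was at 29.8 and 52.0 CPM (0.64).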

How the data were processed

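The authors deposited 1 matrix of raw UMI counts per library, and the file headers name Cell Ranger 7.1.0. The submitters' processing notes also name mm10 and Seurat. Annotation and counting of intronic reads: not given in the sources used here. Barcodes had been filtered before deposit, at no fewer than 502 and 501 UMIs. From the counts, barcodes with at least 500 UMIs, 250 genes and at most 20% mitochondrial UMIs were kept (9612 and 9174), and doublets called by Scrublet (scanpy 1.11.5) were removed, 263 (2.74%) and 273 (2.98%). Cells that passed more than 1 lineage gate were left out, with macrophage and Sox5 myeloid taken as 1 lineage. A cell that passed both of these counted as Sox5 myeloid, and hepatocytes had to pass no other gate. Sums carry exact Poisson intervals, shares exact Clopper-Pearson intervals and ratios the exact conditional interval (Python 3.11.15, scipy 1.17.1). The ratio intervals were run on Poisson counts simulated from summed T cell rates. Such counts hold no differences between cells, so the run says nothing about that spread. In each gate the 2 highest and 2 lowest members of each genome were named, and of each list up to 2 genes in each direction with at least 50 CPM in a library. Members, gates and lists were chosen with earlier results of these data known. Of 275 list genes 1 was unmatched, and 1 symbol with 2 identifiers was left out. Alternatives were the mitochondrial limit, overlapping gates, doublets, depth, per-cell means, added CPM and the denominator.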

Additional observations from a re-analysis of the deposited data

Results flagged for a closer look

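The mitochondrially encoded sum differed in direction between gates under the same contrast, Crtc2-/- over Crtc2+/+. The log2 ratio was -1.34 in keratin-high hepatocytes, -1.12 in keratin-low hepatocytes and -0.19 in neutrophils, and 0.39 in macrophages, 0.23 in Sox5 myeloid cells, 0.07 in endothelial cells, 0.07 in B cells and 0.01 in T cells. Some of these directions depended on the measure or on the cells taken. Neutrophils had the higher per-cell median share in Crtc2-/- (0.469% and 0.532%). The Sox5 myeloid value was -0.44 with overlaps kept and no requirement for Csf1r, Fcgr4 and Cd68. That of T cells was -0.0027 with called doublets kept. Among endothelial cells the sum was lower in Crtc2-/- in Stab2-positive and higher in Stab2-negative cells. With 1 library per genotype the difference between gates was not tested.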

How the results depend on the processing

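No paired analysis was possible because each genotype has 1 library, and for the same reason no replicate could be left out. Values are log2 ratios, Crtc2-/- over Crtc2+/+. Besides the values below, 83 values of the sums and counts stayed within the counting interval or within 1.5 times, and of the single members and lists 625 stayed and 23 moved. The cells with at least 0.5% mitochondrial or 0.1% Malat1 UMIs were chosen after seeing the data. The cause of each shift was not tested.

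For the mitochondrial sum, with no limit on the mitochondrial share the value was -1.43 in keratin-high and -1.80 in keratin-low hepatocytes, 0.38 in macrophages and 0.0014 in T cells. A limit of 10% gave -1.31, -0.98, 0.34 (Sox5 myeloid) and -0.12 (neutrophils). Gates with overlaps kept gave -1.12, -0.79, 0.12 (endothelial), 0.50 (macrophages), -0.44 (Sox5 myeloid), -0.044 (neutrophils), 0.026 (T) and 0.22 (B). In this setting, for both sums, the Sox5 myeloid gate also lacked its requirement for Csf1r, Fcgr4 and Cd68. Called doublets kept gave -1.32 (keratin-high), 0.19 (Sox5 myeloid), -0.0027 (T) and 0.087 (B), and cells of at least 2000 UMIs -0.79 (keratin-low). Cells with at least 0.5% mitochondrial UMIs gave -0.91, -0.77, 0.36 (macrophages), 0.19 (Sox5 myeloid), -0.34 (neutrophils) and 0.050 (B). Cells with at least 0.1% Malat1 gave -1.06, -0.30, 0.087 (endothelial), 0.019 (T) and 0.087 (B). The mean of per-cell CPM gave -1.27, -1.64, 0.46 (macrophages), 0.44 (Sox5 myeloid), -0.052 (neutrophils), 0.043 (T) and 0.17 (B).

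For the nuclear sum in keratin-low cells, no limit gave -0.49, 10% gave -0.43, overlaps kept -0.37, 0.5% mitochondrial -1.17, 0.1% Malat1 -1.13 and per-cell means -0.48. In keratin-high cells overlaps kept gave 0.19, 0.5% mitochondrial -0.087, 0.1% Malat1 0.095, per-cell means 0.096 and a denominator without mitochondrial UMIs 0.21. Overlaps kept gave 0.15 (endothelial), 0.26 (macrophages) and -0.12 (Sox5 myeloid), 0.5% mitochondrial 0.66 (neutrophils), 0.1% Malat1 0.22 (macrophages), and per-cell means 0.33 (macrophages), -0.058 (T) and -0.034 (B). With 1 CPM added, the nuclear members at or below -1 in keratin-low cells numbered 5 in place of 3, as with the denominator without mitochondrial UMIs (5), those at or above 1 in neutrophils 3 in place of 1, and mitochondrial members at or below -1 in neutrophils 1 in place of 0.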

Other observations

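A few mitochondrial genes outside the respiratory chain differed between libraries by more than the medians of their lists. In keratin-high hepatocytes Slc25a4, the heart-type exchanger of ATP and ADP, was at 297 and 78.0 CPM in Crtc2+/+ and Crtc2-/- (log2 ratio -1.80), and it was also lower in keratin-low cells (339 and 90.6 CPM, -1.79). In T cells it was at 134 and 153 CPM (0.18). Mpc1, a subunit of the mitochondrial pyruvate carrier, was higher in Crtc2-/- keratin-high cells, at 301 and 717 CPM (1.23). Over the list of carriers and uncoupling proteins 9 of 15 measured genes were above 0 in that gate, with a median of 0.04. In keratin-low cells 2 of 10 were above and 8 below 0, with a median of -0.52.

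Gdf15, a secreted factor of mitochondrial and integrated stress, was at 51.1 and 153 CPM in keratin-high cells (1.42) and at 3.02 and 122 CPM in macrophages (3.34). The list of mitochondrial and integrated stress genes had 10 of 13 above 0 in keratin-high cells (median 0.28) and 7 of 12 in macrophages (0.00). Sod2, the superoxide dismutase of the matrix, was at 69.5 and 150 CPM in macrophages (1.01), where 8 of 9 antioxidant genes were above 0 (median 0.21). In the tricarboxylic acid cycle, Idh2 was at 348 and 200 CPM in keratin-high cells (-0.77) and at 127 and 25.2 CPM in Sox5 myeloid cells (-1.96), and the list medians were 0.05 and 0.03. Among nuclear regulators of mitochondrial genes, Yy1 (63.9 and 153 CPM, 1.14) and Ppara (49.9 and 111 CPM, 1.01) were the highest in keratin-high cells, and 6 of the 12 were below 0. Tissue-restricted complex IV subunits were mostly too low to measure, but Cox6b2 was at 92.6 and 54.0 CPM in keratin-high cells (-0.68).

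Dissociation and heat shock genes had median log2 ratios of 0.62 in keratin-high, 1.89 in keratin-low, 0.60 in endothelial and 0.46 in T cells, 0.14 in macrophages, 0.022 in B cells, -0.19 in Sox5 myeloid cells and -0.35 in neutrophils. The list of hepatocyte transcripts had medians of 1.93 in endothelial cells, 0.67 in macrophages, 0.55 in Sox5 myeloid cells, 0.49 in T cells and 0.40 in B cells, and of -0.46 in neutrophils, where 5 of 7 measured genes were below 0.

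Across cells of the keratin-high gate, the mitochondrial share was set against the share of the nuclear members among non-mitochondrial UMIs. Their rank correlation was -0.13 over 156 Crtc2+/+ cells and -0.70 over 131 Crtc2-/- cells. Barcodes under 0.5% mitochondrial UMIs, where the nuclear sum was higher, made up 21 and 49 of these cells, and their part was not tested. Both shares come from the same barcode and depth, and the value is a description.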
